A study of Caenorhabditis elegans with 3 samples.

Results

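Molecular chaperones keep proteins folded, and 65 of the 19973 protein-coding genes on the nuclear chromosomes of C. elegans carry a symbol that starts with hsp-, dnj-, cct- or pfd-. These genes were chosen by symbol prefix, with 22 hsp- genes, 29 dnj- genes, 8 cct- genes and 6 pfd- genes. A gene is called bound where a ChIP-seq peak of the transcription factor ELT-3 had its summit between 1000 bp upstream and 200 bp downstream of a transcript start. By that rule 33 of the 65 chaperone genes were bound, or 50.8%, and 15.5% of all protein-coding genes were. The group was proposed with these peak positions and signals known, so its counts, and the differences between prefixes, are given as a description without a test.

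The worms were whole L1 larvae of strain OP75, with the allele unc-119(ed3) on chromosome III and the transgene wgIs75, which makes ELT-3 fused at its C terminus to GFP and FLAG. The sexes were pooled, and sonication sheared the chromatin. The 3 libraries make up 1 group with 2 biological replicates, and replicate 1 was sequenced as 2 technical libraries that share 1 peak list. There is no comparison between conditions, the work rests on 1 transgenic line, and whole larvae do not tell in which tissue a site was bound. The files used hold peaks and no reads, so library depth is unknown.

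HSP70 proteins hold unfolded stretches of other proteins and release them with ATP, and J-domain proteins bring them their clients and stimulate their ATPase. HSP110 exchanges the nucleotide, HSP90 matures signalling proteins, and small heat shock proteins hold aggregation-prone proteins without ATP. Prefoldin passes new actin and tubulin to the CCT ring, which folds them in its cavity, and HSP60 is the ring chaperonin of mitochondria. The heat shock factor HSF-1 activates many of these genes through heat shock elements, arrays of GAA units in alternating orientation. ELT-3 belongs to the GATA family of zinc finger factors and is known from the epidermis. The family binds the sequence WGATAR, in which W stands for A or T and R for A or G.

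The sequences of the bound chaperone promoters show which of these elements lay beneath the peaks. Each sequence below is 101 bases of the ce11 build (the WBcel235 assembly of RefSeq) with the summit as its middle base, read 5′ to 3′ on the strand of the named gene. In the first set the capitals mark cores of heat shock elements, GAANNTTC or TTCNNGAA, which both read the same on either strand. They are shown because 10 of the 35 chaperone promoter peaks held such a core within 50 bp of the summit.
hsp-110 (chrIII:8447103-8447203, minus strand): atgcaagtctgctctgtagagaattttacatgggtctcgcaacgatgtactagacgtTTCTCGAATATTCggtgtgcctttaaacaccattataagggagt
hsp-16.41 (chrV:1805127-1805227, plus strand): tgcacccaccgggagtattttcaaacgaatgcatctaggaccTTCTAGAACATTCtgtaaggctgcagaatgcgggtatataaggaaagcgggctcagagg
hsp-1 (chrIV:17278545-17278645, plus strand): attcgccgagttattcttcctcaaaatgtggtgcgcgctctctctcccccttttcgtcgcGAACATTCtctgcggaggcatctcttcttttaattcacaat
hsp-90 (chrV:14685746-14685846, plus strand): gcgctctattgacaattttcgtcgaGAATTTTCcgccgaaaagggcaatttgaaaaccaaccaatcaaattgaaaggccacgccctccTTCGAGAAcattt
cct-1 (chrII:8185161-8185261, plus strand): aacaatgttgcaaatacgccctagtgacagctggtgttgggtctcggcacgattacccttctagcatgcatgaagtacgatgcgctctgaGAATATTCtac
cct-6 (chrIII:5855913-5856013, minus strand): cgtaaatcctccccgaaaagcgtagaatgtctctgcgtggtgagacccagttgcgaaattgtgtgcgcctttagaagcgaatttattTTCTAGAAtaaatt

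In hsp-110 and between hsp-16.2 and hsp-16.41 the cores overlapped and made 1 unbroken array, whereas hsp-90 held 2 cores apart from each other. The first base of the hsp-110 array lay 7 bp downstream of the summit, and the hsp-16.41 array began 8 bp upstream of the summit and ran across it. The single core of hsp-1 began 10 bp downstream of the summit. In cct-1 and cct-6 the core lay farther out, beginning 40 and 37 bp downstream.

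In the second set the capitals mark WGATAR on either strand. These are the only 4 chaperone promoter peaks that held the sequence of the factor's own family within 50 bp of the summit, and the hsp-60 peak is the weaker of 2 at that gene.
hsp-25 (chrX:6040442-6040542, minus strand): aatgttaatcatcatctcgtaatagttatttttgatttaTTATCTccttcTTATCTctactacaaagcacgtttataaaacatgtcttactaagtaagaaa
pfd-5 (chrIII:7199612-7199712, minus strand): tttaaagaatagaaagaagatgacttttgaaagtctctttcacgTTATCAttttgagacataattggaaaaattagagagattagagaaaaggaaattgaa
dnj-22 (chrV:8462246-8462346, minus strand): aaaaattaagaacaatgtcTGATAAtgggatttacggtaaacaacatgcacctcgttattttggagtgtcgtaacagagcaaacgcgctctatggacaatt
hsp-60 (chrIII:1622522-1622622, plus strand): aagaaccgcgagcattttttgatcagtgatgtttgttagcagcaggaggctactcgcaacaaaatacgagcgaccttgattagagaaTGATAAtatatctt

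The hsp-25 promoter held 2 GATA sites, one starting at the summit base and the other 11 bp upstream of it. The pfd-5 site began 6 bp upstream of the summit. The sites of dnj-22 and hsp-60 lay farther out, beginning 31 bp upstream and 37 bp downstream of their summits.

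The last pair is shown because these are 2 of the 3 strongest chaperone peaks, pfd-6 being the other, in which none of the 5 motifs searched was found within 50 bp of the summit. The motifs were WGATAR, both orientations of the heat shock element core, CTGCGT, and the repeat GAGAGA. All were sought on both strands, and no base is in capitals.
hsp-60 (chrIII:1619083-1619183, plus strand): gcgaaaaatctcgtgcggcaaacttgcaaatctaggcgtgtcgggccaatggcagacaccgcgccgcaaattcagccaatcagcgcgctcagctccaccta
pfd-1 (chrIV:11149753-11149853, plus strand): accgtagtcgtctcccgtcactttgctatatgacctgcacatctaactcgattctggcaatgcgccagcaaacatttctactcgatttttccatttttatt

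The 4 prefixes differed in how many of their genes were bound. Among pfd- genes 5 of 6 were bound (83.3%), among cct- genes 6 of 8 (75%), among hsp- genes 10 of 22 (45.5%) and among dnj- genes 12 of 29 (41.4%). All 4 shares stood above the 15.5% of all protein-coding genes. With each summit tied to the nearest start only, the cct- share was 12.5%, near the 11.9% of all genes under that rule. The authors' signal, whose scale is not stated and which serves here to rank peaks, had a median of 84.0 over the strongest peaks of the 33 bound chaperone genes, against 63.3 over the 3053 other bound genes. Its medians were 63.3 in pfd-, 91.3 in cct-, 77.5 in hsp- and 93.4 in dnj- genes. The prefix with the largest bound share thus had the lowest median signal.

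**Figure D1:**
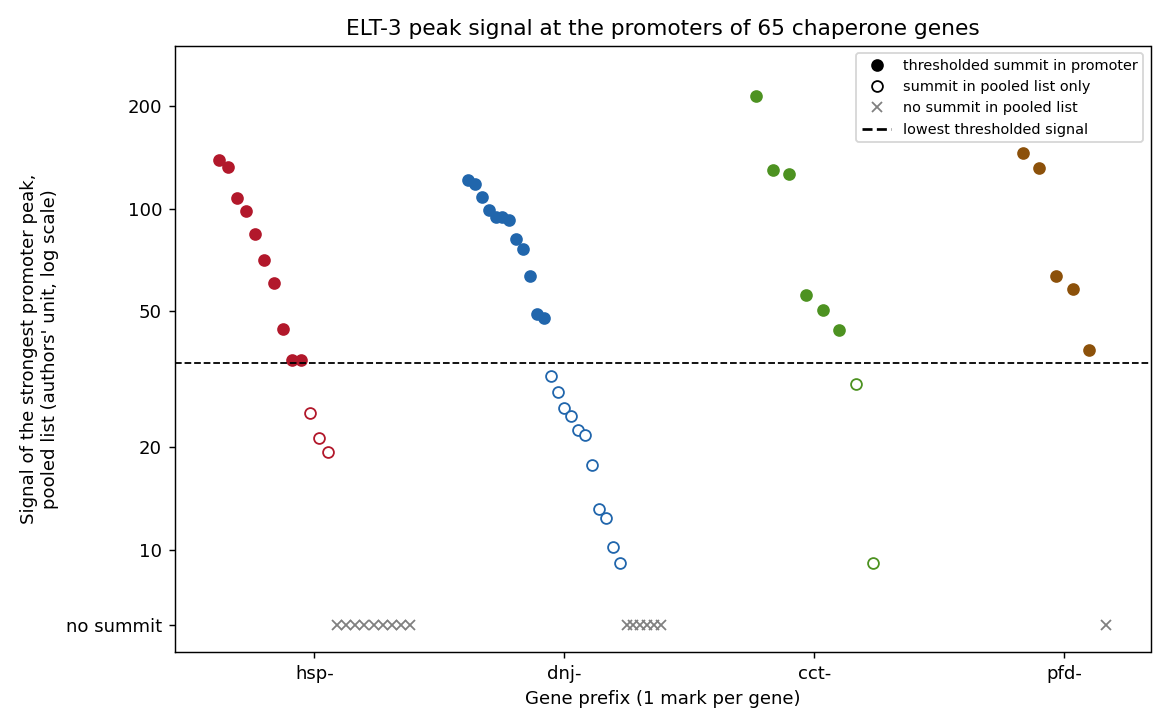
Each of the 65 chaperone genes is 1 mark, by prefix, at the signal of its strongest promoter peak in the pooled list (authors' value, scale not stated, log axis), with filled circles for bound genes, open circles for genes with a pooled summit below the threshold, crosses for genes with none and a dashed line at the lowest thresholded signal, 35.2. The bound cct- genes span the widest range, 44.1 to 214, and the bound dnj- genes run from 47.8 to 122.

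Bound genes were found on all 6 chromosomes. On chromosome X all 5 members were bound, hsp-3, hsp-25, hsp-43, dnj-7 and dnj-14. Elsewhere the counts were 4 of 11 on chromosome I, 6 of 12 on II, 7 of 12 on III, 5 of 11 on IV and 6 of 14 on V. The share of all protein-coding genes bound on each chromosome was not counted. The count on X therefore does not tell the members apart from other genes there.

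Of the HSP70 and HSP110 genes 4 of 6 were bound, and they cover the cytosol, the mitochondrion and the endoplasmic reticulum (ER). The strongest was hsp-110, the nucleotide exchange factor, with a signal of 132 in the pooled data, 67.9 in replicate 1 and 67.5 in replicate 2. It stood at rank 341 of the 4530 thresholded peaks, and at ranks 504 and 363 in the lists of replicates 1 and 2. The mitochondrial HSP70 gene hsp-6 had 98.7 in the pooled data, 81.4 in replicate 1 and 20.3 in replicate 2. The replicates placed the hsp-6 peak at ranks 263 and 3709, so it stood much higher in replicate 1.

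The gene of the main cytosolic HSC70, hsp-1, had a single peak at chrIV:17278435-17278754, 364 bp upstream of its start, that no other gene's promoter shared. Its signal was 70.9 in the pooled data, 34.0 in replicate 1 and 37 in replicate 2, and the ranks of 2373 and 1489 put it within the strongest 4530 peaks of both. The ER HSP70 genes hsp-3 and hsp-4, which encode BiP-type proteins, fell on opposite sides of the threshold. hsp-3 had 2 peaks, with signals of 84.0 at 48 bp and 43.5 at 516 bp upstream of the start, while hsp-4 had a summit in the pooled list with 25.1 at 204 bp upstream. Below the threshold signal of 35.2, hsp-4 stood at rank 6283. The stronger hsp-3 peak had 50.1 in replicate 1, at rank 1161, and 15.6 in replicate 2, at rank 5302. The heat-inducible hsp-70 had no promoter summit in the thresholded or the pooled list.

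The genes of the mitochondrial HSP60 and the cytosolic HSP90 were both bound. The mitochondrial chaperonin gene hsp-60 had its main peak at chrIII:1619062-1619194, with 138 in the pooled data, 72.8 in replicate 1 and 64.6 in replicate 2. That summit lay 609 bp upstream of hsp-60 and 204 bp upstream of Y22D7AL.10, the gene that RefSeq annotates as the mitochondrial 10 kDa heat shock protein, which is the lid of the HSP60 ring. The main peak therefore lay between the genes for both parts of the mitochondrial chaperonin, which point away from each other. A second hsp-60 peak, with 75.3, lay in an intron 556 bp upstream of a later start of the same gene.

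The cytosolic HSP90 gene hsp-90 had a peak at chrV:14685636-14685955 with 108 in the pooled data, 57.3 in replicate 1 and 63.6 in replicate 2. The summit lay 364 bp upstream of the nearer of its 2 starts, inside an intron of the longer transcript. The other HSP90-family gene with the hsp- prefix, hsp-75, had no promoter summit in either list.

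Small heat shock protein genes were the role with the smallest bound share, 4 of 13 or 30.8%. The unbound ones include hsp-16.1, hsp-16.11, hsp-16.48 and hsp-16.49. Their lack of a summit is uncertain, as given below, so the rank of this share is uncertain too. Of the bound genes, hsp-16.2 and hsp-16.41 shared 1 peak, and the signals stayed between 36.1 and 60.4. The highest was hsp-25, with 60.4 in the pooled data, 14.5 in replicate 1 and 50.6 in replicate 2, at a summit 848 bp upstream of its start. Its rank was 747 in replicate 2 and 6234 in replicate 1, so it was high in 1 replicate only. hsp-43 had 44.3 at 814 bp upstream, with ranks 3533 and 3916 in replicates 1 and 2. Both genes lie on chromosome X, and both summits were far from the start compared with the median of 276 bp upstream over all bound members.

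The heat-inducible pair hsp-16.2 and hsp-16.41 shared 1 peak at chrV:1805017-1805336, in the 220 bp between their divergent starts. Its summit lay 1 bp upstream of hsp-16.41 and 220 bp upstream of hsp-16.2. With a signal of 36.1 it was the chaperone peak closest to the threshold, at rank 4424 of 4530, and it had 22.4 in replicate 1 and 9.53 in replicate 2. The replicate ranks were 4079 and 11983, so replicate 2 alone would not have placed it among its strongest 4530.

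The other hsp-16 genes sit at a second site on chromosome V as inverted pairs. No thresholded or pooled summit lay in the 348 bp between hsp-16.1 and hsp-16.48 (chrV:9087783-9088130) or in the 310 bp between hsp-16.49 and hsp-16.11 (chrV:9089767-9090076). Of the 36-base words of the first stretch, 87.9% also occur in the second, so a read from a shared word could come from either, and how the authors treated such reads is not stated. The lack of a summit in both stretches is therefore uncertain. hsp-16.11 had a pooled summit with 21.3 outside its stretch, 990 bp upstream of its start. The hsp-16.2 and hsp-16.41 stretch shares 0% of those words. hsp-12.6 and hsp-17 had no promoter summit in either list.

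J-domain genes were bound at 12 of 29, with most of the bound ones at high signal. The highest was dnj-9, with 122 in the pooled data, 73.7 in replicate 1 and 49.9 in replicate 2, at a summit 222 bp upstream that no other gene shared. It was followed by dnj-11, whose product RefSeq names as a DNAJC2 homologue, with 118 in the pooled data, 52.0 in replicate 1 and 62.2 in replicate 2. dnj-14, the cysteine string protein of synaptic vesicles, had 108, 68.2 and 38.5 in the same order. The lowest of their replicate ranks was 1383, that of dnj-14 in replicate 2.

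The genes of dnj-12, dnj-13 and dnj-19, class A and B proteins of the cytosol that work with HSC70, were bound. dnj-13 had 92.6 in the pooled data, 77.3 in replicate 1 and 26.5 in replicate 2. dnj-19 had 81.6, 43.7 and 38.3 in that order, and dnj-12 had 76.1, 25.7 and 42.4. In worms and mammals, HSC70, HSP110 and a class B J-domain protein together take apart aggregates. The worm genes of that set, hsp-1, hsp-110 and dnj-13, each had a promoter peak among the strongest 4530 of both replicates. Of all 35 chaperone peaks 25 were there (71.4%), against 61.7% of other promoter peaks. The hsp-110 and dnj-13 summits also lay in the promoters of rpn-3 and F54D5.9.

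Of the J-domain genes for the secretory pathway, dnj-20, the DNAJB11-type protein of the ER lumen, had 2 peaks with signals of 94.2 and 49.1, each upstream of a different start. dnj-7, a DNAJC3-type protein, had 63.4, and dnj-29, the SEC63-type protein of the translocon, had 49. The mitochondrial dnj-10 had 47.8 in the pooled data, 38.5 in replicate 1 and 6.57 in replicate 2, where it stood at rank 23412 of 27330. It had the lowest replicate rank of all bound members. The remaining bound genes were dnj-22 with 99.2 and dnj-17 with 94.3.

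The CCT ring is built of 8 different subunits in equal number, and its genes ran from the strongest chaperone peak to below the threshold. cct-1 had the strongest peak of all members, at chrII:8185125-8185290, with 214 in the pooled data, 153 in replicate 1 and 59.4 in replicate 2. It ranked 51 in the thresholded list, 14 in replicate 1 and 523 in replicate 2. cct-6 had 130, 83.3 and 52.4 in the same order, and cct-8 had 127, 70.2 and 46.6. These 3 stood well above the others of the ring.

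cct-4 had 55.9, cct-2 had 50.4 and cct-5 had 44.1 in the pooled data. In replicate 2, cct-2 and cct-5 stood at ranks 8942 and 6024, outside its strongest 4530. cct-7 had a pooled summit with 30.5, just under the threshold, and cct-3 had one with 9.15 at rank 22504. Its nearest thresholded summit was 166460 bp downstream of the start. The subunits of 1 complex thus spanned nearly the whole signal range of the bound chaperone genes.

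Prefoldin is built of 6 subunits, and all but pfd-2 were bound. pfd-6 had 145 in the pooled data, 82.4 in replicate 1 and 61.8 in replicate 2, and pfd-1 had 132, 78.3 and 55.4 in that order. pfd-4 had 63.3, pfd-5 58.2 and pfd-3 38.5 in the pooled data. The pfd-5 peak had 11.0 in replicate 1, at rank 8056, and 54.9 in replicate 2, at rank 623, while pfd-4 stood at rank 1229 in replicate 1 and at rank 7288 in replicate 2. pfd-1 and pfd-6 were thus high in both replicates, and the other 3 were lower in the pool, with pfd-4 and pfd-5 high in 1 replicate only. pfd-2 had no pooled promoter summit.

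**Figure D2:**
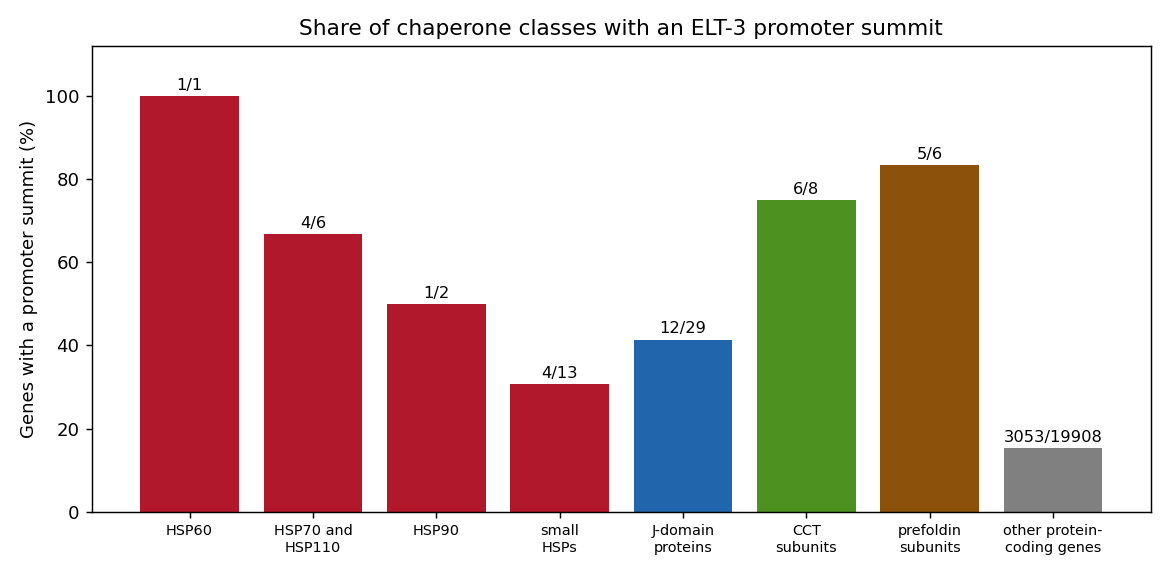
The percentage of genes with a promoter summit is plotted for each chaperone role, with the number bound and the number of genes, and for all other protein-coding genes. Prefoldin stands at 83.3% and CCT at 75%, small heat shock proteins at 30.8%, and the other protein-coding genes at 15.3%. The small heat shock protein share counts as unbound some hsp-16 genes whose lack of a summit is uncertain.

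The members just inside the threshold of 35.2 were hsp-16.2 and hsp-16.41 with 36.1, pfd-3 with 38.5, cct-5 with 44.1 and hsp-43 with 44.3. Those just outside it were dnj-27 with 32.2, cct-7 with 30.5, dnj-23 with 28.9, dnj-25 with 26.1 and hsp-4 with 25.1. Of the 32 members that were not bound, 16 had a summit in the promoter in the pooled list of 26508 peaks and 16 had none. Among the 16855 other protein-coding genes that were not bound, 5256 had such a summit and 11599 had none. Members near the threshold therefore came from all 4 prefixes.

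The chaperone peaks were looked up in the list of each replicate. All 35 overlapped a relaxed peak of both replicates, and so did 95.8% of the 2552 other promoter peaks. The thresholded list was made from these relaxed lists, so such overlap was largely fixed in advance. Among the strongest 4530 of replicate 1 were 33 of the 35 (94.3%), against 84.7% of the other promoter peaks, and among those of replicate 2 were 27 (77.1%), against 75.6%. In both were 25 (71.4%), against 61.7%. The 2 chaperone peaks outside the strongest 4530 of replicate 1 were those of hsp-25 and pfd-5, which also held WGATAR close to the summit and lay 848 and 778 bp upstream of the start.

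**Figure D3:**
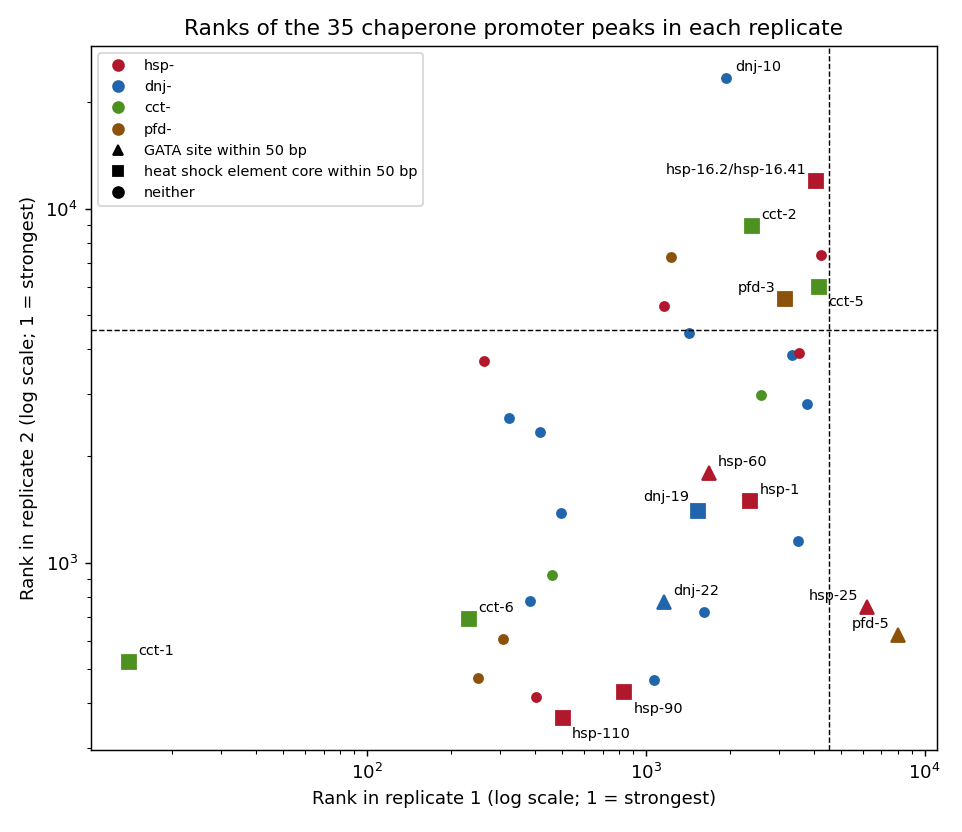
Each of the 35 chaperone promoter peaks is placed by its rank in the relaxed list of replicate 1 and of replicate 2 (log axes, rank 1 strongest), coloured by prefix, with triangles for a GATA site, squares for a heat shock element core and dashed lines at rank 4530. cct-1 stands nearest the strong corner, hsp-25 and pfd-5 lie beyond the line for replicate 1, and dnj-10 lies farthest beyond the line for replicate 2.

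Binding was called again from each replicate and by other rules. The strongest 4530 peaks of replicate 1 alone gave 34 bound members (52.3%), against 15.8% of all genes, and those of replicate 2 alone gave 27 (41.5%), against 14.1%. With only the 2265 peaks of highest signal 23 members were bound (35.4%), against 8.34% of all genes. A promoter of 500 bp upstream and 100 bp downstream left 28 (43.1%), against 12.4%. One of 2000 bp upstream and 200 bp downstream gave 36 (55.4%), against 19.8%. Under each of these rules the members' share was above that of all genes.

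The count fell furthest when a summit could count for just 1 gene, the one whose start lay nearest. Then 17 of the 65 members were bound (26.2%), against 11.9% of all genes. cct- genes went down to 1 of 8, hsp- genes to 6 of 22, dnj- genes to 7 of 29 and pfd- genes to 3 of 6. The cct- share, 12.5%, was then near the 11.9% of all genes. The genes that lost their peak include cct-1, cct-6, cct-8, hsp-110, hsp-90, hsp-6, dnj-11, dnj-14 and pfd-1.

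Summit positions and shared promoters were set beside those of other bound genes. For all 33 bound members the strongest summit lay upstream of the nearest start, at a median of 276 bp, and for the 3053 other bound genes 94.4% were upstream, at a median of 230 bp. The summit was in a promoter shared with another gene for 23 members (69.7%), against 44.4% of the other bound genes. In 22 of them (66.7%) that neighbour pointed away from the member, against 41.1%. The member's own start was the nearest one for 16 (48.5%), against 76.8%. All 6 bound cct- genes shared a divergent promoter, and 1 of those, cct-2, was the nearest gene.

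**Figure D4:**
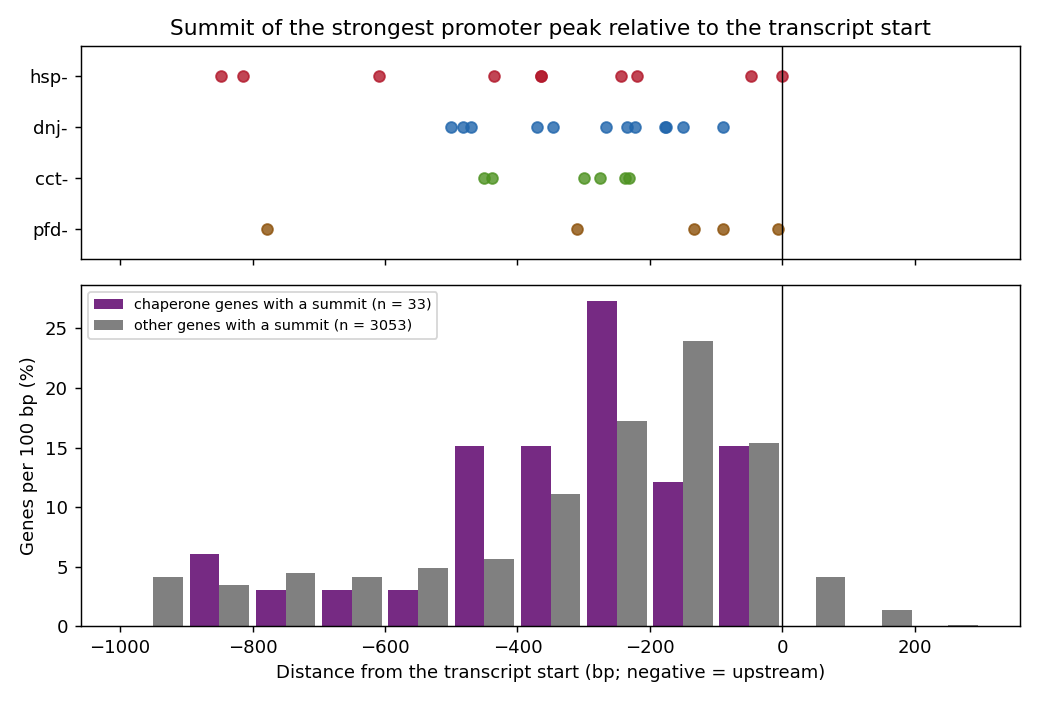
The distance from the transcript start to the strongest summit (bp, negative is upstream) is shown as points for each prefix (top) and as the percentage of genes in bins of 100 bp (bottom) for the 33 bound chaperone genes and for the other bound genes. Chaperone summits lie between 848 and 1 bp upstream, and 25 of the 33 (75.8%) lie 50 to 500 bp upstream, against 66.8% of the other bound genes.

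The neighbours that shared these promoters came from many kinds of gene. The cct-1 summit lay 188 bp upstream of mig-5, a Dishevelled protein, and 232 bp upstream of cct-1. The hsp-110 summit was 200 bp upstream of rpn-3, a subunit of the proteasome lid, and 244 bp upstream of hsp-110. The cct-6 summit was 55 bp upstream of alh-9, an aldehyde dehydrogenase, and 276 bp upstream of cct-6. At pfd-1 the summit was 299 bp from F01G4.6, the mitochondrial phosphate carrier, and 310 bp from pfd-1. In such cases the peaks do not tell which gene the binding serves.

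The letters beneath the chaperone peaks were set beside those beneath other promoter peaks. WGATAR lay within 50 bp of the summit in 4 of 35 chaperone promoter peaks (11.4%, exact 95% interval 3.20 to 26.7%), against 810 of 2552 other promoter peaks (31.7%). In equally wide windows placed 500 bp to either side, 17.1% and 20% of chaperone peaks held it, against 20.8% and 18.8% of the others. By prefix it was present in 2 of 11 hsp-, 1 of 13 dnj-, 0 of 6 cct- and 1 of 5 pfd- peaks, and the interval for cct- reaches 45.9%. At the chaperone peaks WGATAR was thus no more frequent at the summit than beside it. These intervals are Clopper-Pearson and cover counting error over peaks only.

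The heat shock element core, GAANNTTC or TTCNNGAA, was present in 10 of 35 chaperone peaks (28.6%, exact 95% interval 14.6 to 46.3%), against 151 of 2552 others (5.92%). Its shares in the windows to either side were 22.9% and 11.4% at chaperone peaks, against 13.4% and 13.6% at the others, where the summits held fewer cores than the windows beside them. By prefix it lay in 4 of 11 hsp-, 1 of 13 dnj-, 4 of 6 cct- and 1 of 5 pfd- peaks. Besides the 6 peaks printed above, those with a core were dnj-19, cct-2, cct-5 and pfd-3. The core's share at the chaperone summits was therefore above that of other promoter peaks, while the difference from one of the chaperone flanks was small.

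The GC content around the summit was the same in both sets, with a median of 43.6%. It was 38.6% in the flanks of chaperone peaks, against 36.1% in those of the others. GAGAGA lay in 3 of 35 chaperone peaks (8.57%), against 23.1%, and CTGCGT in 2 (5.71%), against 14.2%.

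**Figure D5:**
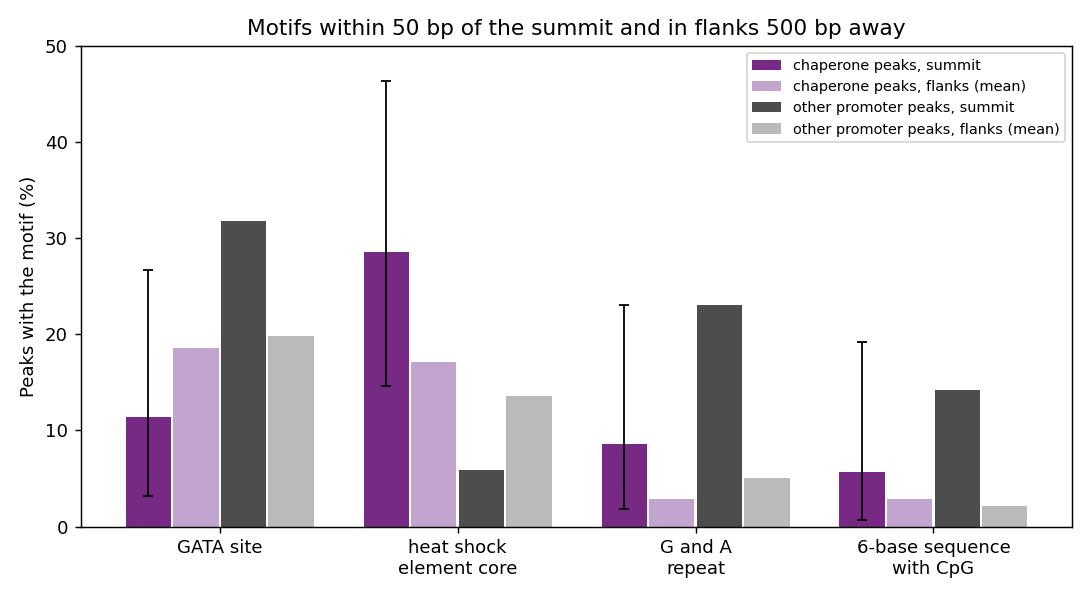
The percentage of peaks with a GATA site, a heat shock element core and the 2 other 6-base motifs within 50 bp of the summit is plotted as dark bars for 35 chaperone promoter peaks and 2552 other promoter peaks, with the mean of the windows 500 bp to either side as pale bars. Lines on the chaperone summit bars are exact 95% intervals. Chaperone peaks stand lower for the GATA site, 11.4% against 31.7%, and higher for the core, 28.6% against 5.92%.

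Heat shock element cores were not limited to bound promoters. In the 300 bp that run from 250 bp before the most upstream start, a core was present in 18 of 33 bound members (54.5%), in 14 of 32 members without a summit (43.8%) and in 32.5% of all other protein-coding genes. Among hsp- genes alone it was present in 5 of 10 bound and 7 of 12 without a summit. WGATAR was present in the same stretch of 45.5% of bound members, 43.8% of members without a summit and 54.5% of other genes. hsp-70 is a case with cores in this stretch and no promoter summit in the pooled list. A match to these letters is not a site shown to be used, and neither HSF-1 binding nor expression was measured here.

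Other genes of protein quality control were counted beside the 15.5% of all protein-coding genes. Of HSF-1 and its regulators 0 of 4 were bound, and hsf-1 itself had a pooled summit with 9.91 at rank 19876. Of the ER unfolded protein response 4 of 5 were bound, led by xbp-1, its main transcription factor, with 68.3 and ire-1, the kinase that splices it, with 67.2. Of the mitochondrial response 1 of 9 was bound, atfs-1, its transcription factor, with 50.8. That share, 11.1%, is near the share of all genes, and a list of 4 is too short to set 0 apart from it.

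Co-chaperones of HSP70 and HSP90 were bound at 8 of 13. bag-1, a nucleotide exchange factor, had 212, close to the 214 of cct-1, and sti-1, which links HSP70 to HSP90, had 122. Of the ER lectins, GRP94 and disulfide isomerases 6 of 8 were bound, led by pdi-3 with 145 and pdi-6 with 109. sip-1, a small heat shock protein gene without the prefix, had 86.0, above every small heat shock protein gene of the hsp- prefix. The sip-1 summit also lay in the promoter of sly-1. Proteasome subunit genes were bound at 20 of 33, or 60.6% and thus also above the 15.5% of all genes.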

How the data were processed

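The 4 ce11 peak lists used were the relaxed list of each biological replicate, the relaxed list of their pool, and the list that passed the authors' reproducibility threshold. They were made from alignments and a control, per the deposited file descriptions. The signal of each peak is the authors' deposited value, on a scale that is not stated, and was used to rank peaks. For the aligner and peak caller, names and versions were not given in the sources used here. On ce10, 4 lists were not used, and control libraries were not analysed here. Depth is unknown.

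Summits were tied to starts of protein-coding transcripts of Ensembl release 115. Ensembl gives 4 of the hsp-16 genes a symbol shared with another gene, and RefSeq symbols were used for these. Sequence came from RefSeq's WBcel235 assembly, which is ce11. A peak found in a replicate overlaps by 1 bp or more.

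The 3 libraries form 1 group, so no test was made. The members and lists were chosen with earlier results of these data known. Named genes are all bound members, the 5 unbound members with the highest pooled signal, members and other genes given by symbol, and the 2 strongest of each other list. Alternatives were the 2265 peaks of highest signal, each replicate alone, other promoters, the nearest start only, peak overlap, members that share a peak counted once, and other motif windows. RefSeq symbols, heat shock element windows, strongest peaks only and a set without cct- and pfd- peaks were chosen after seeing the data. Scripts were tested on simulated data. The tools were pandas 2.3.3 and numpy 2.4.6 for tables, scipy 1.17.1 for exact intervals and matplotlib 3.10.9 for plots, run in Python 3.11.15.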

Additional observations from a re-analysis of the deposited data

How the results depend on the processing

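Of 48 values recomputed under other settings, 11 moved: counts by over 1.5 times, or motif shares beyond the exact 95% interval of the reported share. Tying each summit to the nearest start alone gave 17 bound members in place of 33, with 6 hsp-, 7 dnj-, 1 cct- and 3 pfd- genes. With the 2265 peaks of highest signal, 3 cct- and 3 pfd- genes were bound. Leaving out 1 replicate gave 27 to 34 bound members over the 4 prefixes, 7 to 10 hsp-, 13 to 13 dnj-, 4 to 7 cct- and 3 to 4 pfd- genes. Without replicate 1, hsp-3, hsp-16.2, hsp-16.41, dnj-10, cct-2, cct-5, pfd-3 and pfd-4 were lost and dnj-23 and dnj-27 gained. Without replicate 2, hsp-25 and pfd-5 were lost and hsp-16.11, dnj-24 and cct-7 gained. Within 25 bp of the summit WGATAR lay in 5.71% of chaperone peaks, against 17.6% of other promoter peaks, a lower share that is still inside that interval. Within 100 bp it lay in 28.6%, against 49.1%. The heat shock element core lay in 11.4% within 25 bp, against 2.39%, and in 57.1% within 100 bp, against 15.5%. Without the peaks tied only to cct- and pfd- genes its share was 20.8%. The chaperone share stayed below that of the other peaks for WGATAR and above it for the core at each of these widths. No paired analysis was possible because all samples belong to 1 group. With 35 peaks the intervals are wide, and peaks shared by neighbouring genes are not independent.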
